A study of Bos taurus with 4 samples.

Results

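The genes described are the enzymes that make, desaturate and elongate fatty acids in the bovine blastocyst, the embryo stage at which trophectoderm and inner cell mass have separated. They are FADS1, FADS2, SCD, ELOVL1, ELOVL5, ELOVL6, ELOVL7, FASN, ACACA and ACLY. All probes that carry one of these symbols in the array's platform table were taken, which gave 15 of 43794 probes and 10 of 15229 genes with a symbol. The study asked how the freezing method used at the morula stage leaves its mark on the transcripts of the blastocysts that grow from it. Gene expression had been measured in 8 pools, 4 from vitrified and 4 from slow-frozen morulae, each of 7 embryos collected 7 days after fertilization according to the labels. The methods give 7 only as the upper end of the pool size, and describe further culture after warming to morulae already taken near that day, so pool size and age at collection are not exactly known.

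All embryos were bovine (Bos taurus), made by maturing oocytes from abattoir ovaries in vitro and fertilizing them with frozen-thawed semen of a dairy bull, so every pool shared this origin; the labels give the breed as beef. Compact morulae were then divided at random. Vitrified morulae were cooled very fast on a cryotop carrier, with ethylene glycol and dimethyl sulfoxide (DMSO) as cryoprotectants. Slow-frozen morulae were cooled stepwise in straws with glycerol. After warming, both groups were cultured until expansion, and only embryos that reached the expanded blastocyst stage entered a pool, so each group holds survivors of its own treatment. Unfrozen control pools are not analysed here. The vitrified pools were hybridised on one slide and the slow-frozen pools on another, each beside a control pool, so slide and freezing method cannot be told apart in any difference given below. Replicates 1 and 2 of both groups carried the red dye Cy5, and replicates 3 and 4 the green dye Cy3.

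Fatty acids are built from acetyl units that leave the mitochondrion as citrate. ATP citrate lyase (ACLY) splits citrate to acetyl-CoA, acetyl-CoA carboxylase alpha (ACACA) turns it into malonyl-CoA in the committed step, and fatty acid synthase (FASN) assembles palmitate. In the endoplasmic reticulum the ELOVL condensing enzymes then add carbons, and the desaturases add double bonds: stearoyl-CoA desaturase (SCD) makes monounsaturated fatty acids such as oleate, while FADS2 and FADS1 act in turn on linoleic and alpha-linolenic acid on the way to long polyunsaturated fatty acids such as arachidonic acid. Bovine embryos store much lipid in droplets, and this lipid is known for its link to how well they stand freezing.

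Levels are log2 intensities after background correction and normalisation, and differences are vitrified minus slow-frozen on that scale, with the standard error (SE) of the limma fit. The brightest probe stands for a gene in counts of genes. Levels of different probes are not ranked against each other. Median raw intensity was 109 to 384 per pool, and 63.3 to 74.1% of probes lay above the negative control spots of their pool. Vitrified replicate 3 (56.3) and slow-frozen replicate 2 (-34.2) were at the ends of the first principal component, which explained 24.8% of the variance, and values without both are given for the named members and pathway genes that change. All 15 member probes passed the filter on dim probes. Of these, 13 were above the negative controls in all 8 pools, and the ACACA and ELOVL7 probes were above them in 3 of 4 vitrified and 4 of 4 slow-frozen pools.

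Among the 10 genes, FADS2 was the one past both thresholds that the study set, namely a 2-fold difference and an unadjusted p below 0.05. It was lower in blastocysts from vitrified morulae. ELOVL1 was also lower and ELOVL6 higher at an unadjusted p under 0.05, with folds under 2. Thus 3 of 15 probes were under that p, where 4.83% of all 30034 tested probes were. Of these, 2 were lower, against 2.38% of all probes, and 1 was higher, against 2.45%. For both thresholds together the count was 1 of 15 probes, against 0.183% of all tested probes, or 0.12% for those lower. The study had already listed FADS2 among the genes lower in vitrified than in control blastocysts. The members were chosen with that known, so these counts are not independent of the choice and give no support of their own. The median difference of the 10 genes was -0.08, with 8 lower and 2 higher. Over all tested probes the median was 0.0057, with 14579 lower and 15455 higher. No member probe passed the Benjamini-Hochberg adjustment over all probes in limma, which 1 probe of all tested did (0.00333%). The same unadjusted fit gives the 3 probes above. The smallest adjusted p of a member was that of FADS2 at 0.859.

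**Figure D1:**
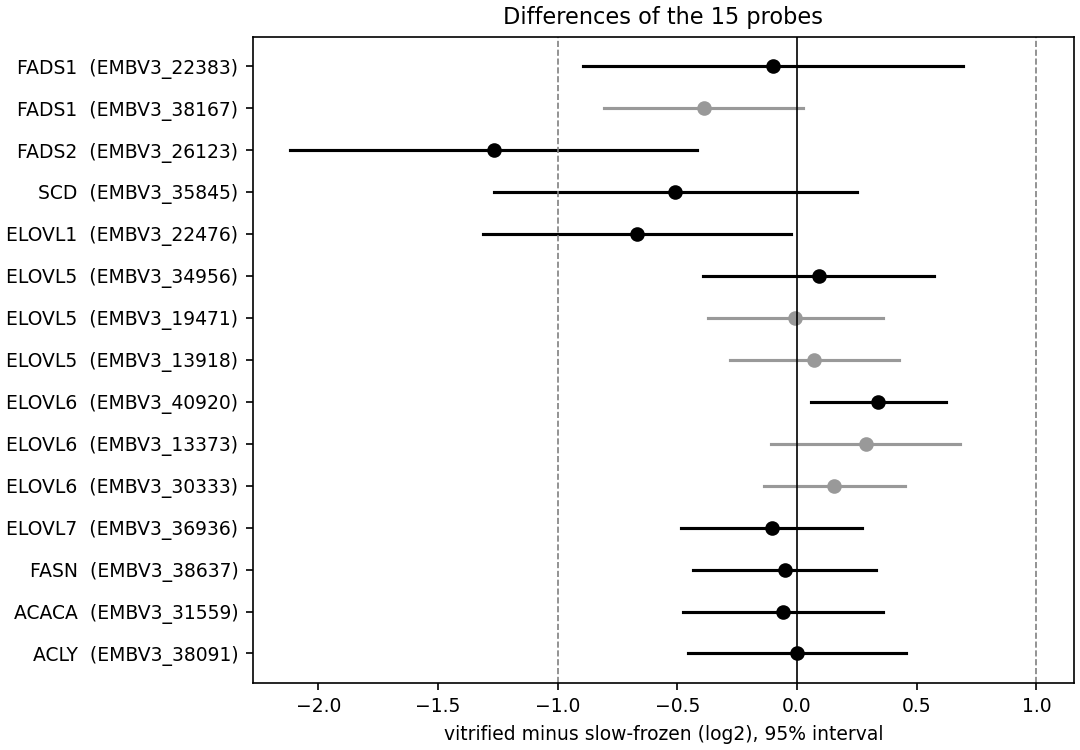
Difference of each of the 15 probes, vitrified minus slow-frozen on the log2 scale (points), with its 95% interval from the limma fit (lines), where black marks the brightest probe of a gene, grey its other probes, and the dashed lines a fold of 2. The FADS2 interval, from -2.12 to -0.42, and the ELOVL1 interval, from -1.31 to -0.03, lie below 0, and that of the brightest ELOVL6 probe, from 0.06 to 0.62, lies above it.

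FADS2 encodes the delta-6 desaturase, which takes the first and rate-limiting step from linoleic acid towards arachidonic acid. Its probe (EMBV3_26123) read 11.79, 11.70, 11.69 and 11.99 in vitrified replicates 1 to 4. In slow-frozen replicates 1 to 4 it read 12.43, 14.21, 13.52 and 12.07. All vitrified pools lay below all slow-frozen pools, but the lowest slow-frozen pool, replicate 4, was only 0.09 above the highest vitrified pool. Such a gap between the groups, in either direction, was found for 2.46% of all tested probes, and with vitrified lower for 0.979%. The group means were 11.79 ± 0.14 (SD, n = 4) and 13.06 ± 0.98 (SD, n = 4). The difference was -1.27 ± 0.39 (SE), with a 95% interval from -2.12 to -0.42, a fold of 2.41, an unadjusted limma p of 0.00737 and an adjusted p of 0.859. An exact two-sided permutation test of this value over the 8 pools gave p = 0.0286, the smallest that 4 against 4 can give; with groups that do not overlap it can give no other value, so it adds nothing to that statement.

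The vitrified pools were alike in FADS2 while the slow-frozen pools were spread widely. The SD of 0.98 among slow-frozen pools was larger than that of 99.7% of the tested probes, whereas the SD of 0.14 among vitrified pools was larger than that of 20.2%. The spread was already in the raw intensities. These were 4788, 15924, 12785 and 4731 in slow-frozen replicates 1 to 4 and 3225, 3151, 3779 and 4841 in the vitrified ones. Raw values of Cy5 and Cy3 pools are on different scales, and before normalisation slow-frozen replicate 4 was not above vitrified replicate 4. Slow-frozen replicate 2 carried Cy5 and slow-frozen replicate 3 carried Cy3, so 1 high pool came from each dye. Within Cy5 the difference was -1.58, and within Cy3 it was -0.96. Without slow-frozen replicate 2 the difference was -0.85, a fold under 2, with a limma p of 0.0166 unadjusted and 1.00 adjusted. Over the other single pools left out it stayed past the thresholds of the study.

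**Figure D2:**
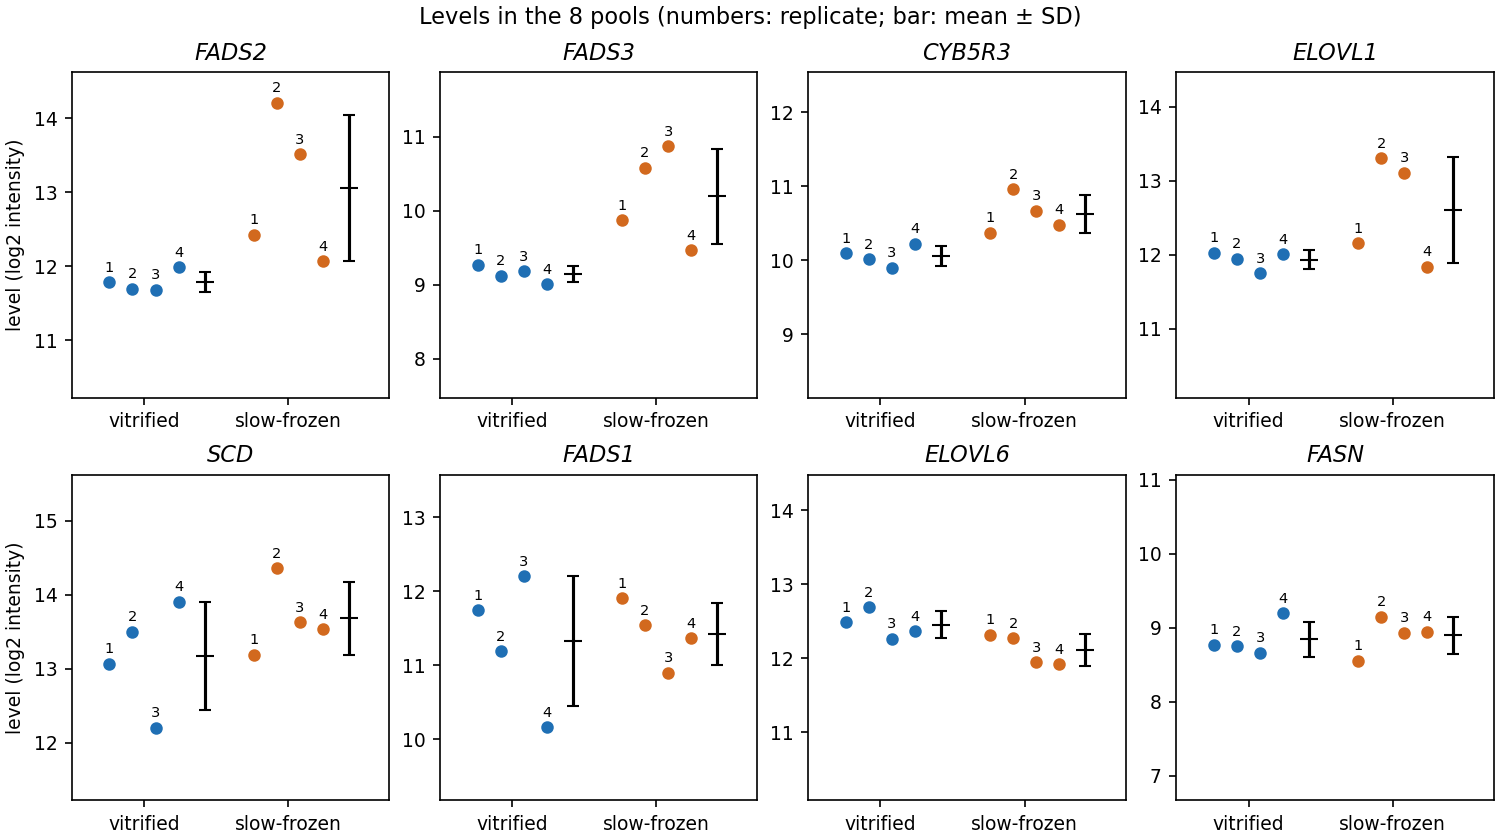
Level of 8 genes in each pool, in log2 intensity, one panel per gene with the same span on the vertical axis, vitrified pools in blue and slow-frozen pools in orange, the number naming the replicate and the black bar the mean ± SD (n = 4). For FADS2, FADS3 and ELOVL1 the vitrified pools are tightly grouped and slow-frozen replicates 2 and 3 stand highest, while the groups overlap for SCD and FADS1, whose vitrified pools are the more widely spread.

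FADS1, the delta-5 desaturase, acts after FADS2 in the same route. In assembly ARS-UCD2.0, FADS1, FADS2 and FADS3 are neighbours on one chromosome. Its brightest probe (EMBV3_22383) read 11.74, 11.19, 12.20 and 10.16 in the vitrified pools and 11.91, 11.54, 10.89 and 11.36 in the slow-frozen pools. The groups overlapped fully, with the highest and the lowest value both in vitrified pools, and the difference was -0.10 ± 0.36 (SE) with a 95% interval from -0.89 to 0.69. Its SD among vitrified pools, 0.88, was larger than that of 99.6% of the tested probes, so for this gene the wide group was the vitrified one. The direction was not settled, as it ran from -0.54 without vitrified replicate 3 to 0.28 without vitrified replicate 4. The other FADS1 probe (EMBV3_38167) had a different pattern. It read 7.40, 7.38, 7.71 and 7.81 in the vitrified pools and 7.61, 8.41, 7.87 and 7.97 in the slow-frozen pools, highest in slow-frozen replicate 2, as for FADS2. Its difference was -0.39 ± 0.19 (SE), with an unadjusted limma p of 0.0630 and an adjusted p of 1.00. The 2 probes thus disagree on the order of the pools, and the level of FADS1 is uncertain to that extent. The second probe was near the negative controls, at a raw 135 in vitrified replicate 2, where their 95th percentile was 126.8. Its order of the pools is therefore the less certain one.

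SCD introduces the first double bond into saturated fatty acids and supplies oleate for membranes and stored triglyceride. Its probe (EMBV3_35845) read 13.07, 13.50, 12.20 and 13.90 in vitrified replicates 1 to 4. In slow-frozen replicates 1 to 4 it read 13.19, 14.36, 13.63 and 13.53. The groups overlapped, the lowest value being that of vitrified replicate 3 and the highest that of slow-frozen replicate 2, the 2 pools at the ends of the first component. The difference was -0.51 ± 0.34 (SE), with a 95% interval from -1.27 to 0.25 and an unadjusted limma p of 0.167 (adjusted p = 1.00). With 1 pool left out it ran from -0.85 without vitrified replicate 4 to -0.17 without vitrified replicate 3 (unadjusted limma p of 0.0169 and 0.579). It was -0.28 without slow-frozen replicate 2. Without both end pools it was 0.21, in the opposite direction. Within Cy5 it was -0.49 and within Cy3 -0.53.

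Elongases are described from those with the larger difference. ELOVL1 lengthens saturated and monounsaturated fatty acids to the very long chains found in sphingolipids. Its probe (EMBV3_22476) read 12.03, 11.95, 11.75 and 12.01 in the vitrified pools. The slow-frozen pools read 12.16, 13.30, 13.11 and 11.84. As with FADS2, the vitrified pools were tight and slow-frozen replicates 2 and 3 were high, but slow-frozen replicate 4 lay within the vitrified range. The means were 11.93 ± 0.13 (SD, n = 4) and 12.60 ± 0.71 (SD, n = 4), and the SD of the slow-frozen pools was larger than that of 98.3% of the tested probes. The difference of -0.67 ± 0.29 (SE) had a 95% interval from -1.31 to -0.03, a fold of 1.59 and a limma p of 0.0430 unadjusted and 1.00 adjusted. It kept its sign with each pool left out, ranging from -0.94 to -0.43. The unadjusted p rose above the threshold in 6 of the 8 such fits, with each of the 4 vitrified pools or slow-frozen replicate 2 or 3 left out, and its highest value was 0.152.

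ELOVL6 lengthens palmitate to stearate, the substrate of SCD. It was the member under an unadjusted p of 0.05 in the other direction, and all 3 of its probes were higher in vitrified pools. The brightest (EMBV3_40920) read 12.49, 12.69, 12.26 and 12.37 in the vitrified pools and 12.32, 12.27, 11.94 and 11.92 in the slow-frozen pools. The ranges overlapped through vitrified replicate 3, which lay below slow-frozen replicates 1 and 2. The means were 12.45 ± 0.18 and 12.11 ± 0.21 (SD, n = 4 each). The difference was 0.34 ± 0.13 (SE), with a 95% interval from 0.06 to 0.62, a fold of 1.27 and a limma p of 0.0231 unadjusted and 0.943 adjusted. The other probes gave 0.29 ± 0.18 (SE) for EMBV3_13373 and 0.16 ± 0.13 (SE) for EMBV3_30333, and both of their intervals included 0. ELOVL6 also differed between dyes, by 0.32, 0.43 and 0.43 higher in Cy5 for the 3 probes (unadjusted limma p of 0.0304, 0.0348 and 0.00859, the smallest adjusted p being 0.430). As both groups hold 2 pools of each dye, the dye term was fitted beside the difference. The difference in the brightest probe was 0.30 within Cy5 and 0.38 within Cy3. With each pool left out it ran from 0.31 to 0.39, and the unadjusted p was above the threshold without vitrified replicate 2 or 4, at most 0.0700. It was also above it without quantile normalisation (limma p of 0.120), for the mean over the 3 probes (0.26, limma p of 0.0764), within Cy5 (limma p of 0.170) and within Cy3 (limma p of 0.139).

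ELOVL5 lengthens the polyunsaturated products of FADS2, and ELOVL7 acts on saturated and other long-chain acyl-CoAs. The ELOVL5 probes gave 0.09 ± 0.22, -0.0077 ± 0.17 and 0.07 ± 0.16 (difference ± SE) for EMBV3_34956, EMBV3_19471 and EMBV3_13918. The brightest one read 13.86, 14.13, 13.41 and 14.27 in the vitrified pools and 13.78, 14.05, 13.38 and 14.09 in the slow-frozen pools, so the groups covered nearly the same range. Its 95% interval, from -0.39 to 0.57, leaves room for a change in either direction below a fold of 2. ELOVL7 (EMBV3_36936) read 7.31, 7.63, 7.07 and 7.74 in the vitrified pools and 7.73, 7.68, 7.39 and 7.36 in the slow-frozen pools. These values were near the negative controls, and the groups overlapped. The ELOVL7 difference was -0.11 ± 0.17 (SE), with an interval from -0.48 to 0.27.

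The 3 enzymes that build palmitate showed no difference past the spread of the pools. ACLY (EMBV3_38091) read 13.97, 13.67, 13.07 and 13.96 in the vitrified pools and 13.51, 13.74, 13.56 and 13.87 in the slow-frozen pools. Its mean was 13.67 in both groups, the difference was -0.0017 ± 0.21 (SE), and the 95% interval ran from -0.46 to 0.45. The vitrified values enclose the slow-frozen ones, with vitrified replicate 3 lowest. ACACA (EMBV3_31559) read 7.92, 8.002, 7.14 and 7.90 in the vitrified pools and 7.62, 8.08, 7.77 and 7.73 in the slow-frozen pools, and its difference was -0.06 ± 0.19 (SE), interval -0.48 to 0.36. Again vitrified replicate 3 was lowest, and it stood apart from the other vitrified pools, which lay close together. FASN (EMBV3_38637) read 8.77, 8.75, 8.66 and 9.19 in the vitrified pools and 8.55, 9.15, 8.93 and 8.95 in the slow-frozen pools. The groups overlapped and the difference was -0.05 ± 0.17 (SE), interval -0.43 to 0.33. All 3 intervals of the probe signal exclude a fold of 2 in either direction. The ACACA probe lay near the negative controls, so its interval describes the signal and may not hold for the transcript.

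The pools of a group differed among themselves in a way that ran through most of these genes. Vitrified replicate 3 was the lowest vitrified pool for 9 of the 10 genes, the exception being FADS1, in which it was the highest. Vitrified replicate 4 was the highest vitrified pool and slow-frozen replicate 2 the highest slow-frozen pool, each for 5 of the 10. The median over the 10 genes of the level centred on its mean over the pools was lowest in vitrified replicate 3 (-0.49) and highest in slow-frozen replicate 2 (0.24). The other 6 pools lay from -0.10 to 0.19. The 2 extreme pools thus lay in the direction of the median group difference. They are also the ends of the first component, and these counts were not set beside those of all probes. Without these 2 pools the FADS2 difference was -0.75 (unadjusted limma p of 0.0581, adjusted p = 0.986), that of ELOVL1 was -0.32 (unadjusted limma p of 0.335) and that of ELOVL6 was 0.35 (unadjusted limma p of 0.0518). FADS1 moved the other way, from -0.10 to -0.70, and was the 1 member with an unadjusted limma p under 0.05 in that setting (0.0150, adjusted p = 0.986). The median of the 10 genes turned from -0.08 to 0.22, with 3 lower and 7 higher. No member probe was then past the thresholds of the study. The differences of ELOVL7, FASN, ACACA and ACLY, each small and negative with all pools, turned positive as that of SCD did, at 0.05, 0.23, 0.24 and 0.28. That of ELOVL5 rose from 0.09 to 0.37 (unadjusted limma p of 0.137).

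**Figure D3:**
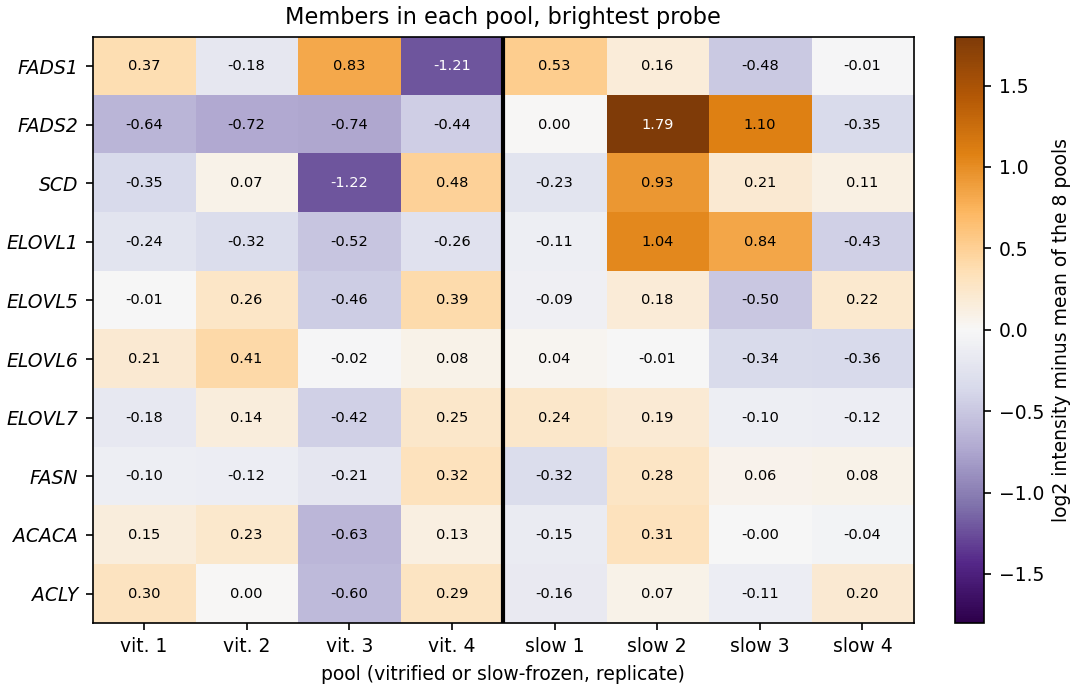
Level of each of the 10 genes (brightest probe, rows) in each pool (columns, vitrified left and slow-frozen right of the line), as log2 intensity minus the gene's mean over the 8 pools, in brown where above and purple where below the mean. FADS2 and ELOVL1 share high values in slow-frozen replicates 2 and 3, while the column of vitrified replicate 3 is below the mean for all genes but FADS1.

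Likeness to FADS2 was measured as the root mean square difference between centred levels over the 8 pools, across 11727 other genes with a symbol. The median gene was at 0.917, and FADS2 itself had a root mean square of 0.879 about its mean. ELOVL1 was at 0.362 and ranked 12, and no other member came near, SCD being the next at rank 318 (0.669). The 5 nearest genes were MUC1, DPEP1, HEBP2, CRYBG2 (AIM1L in the platform table) and LOC616199, at 0.276 to 0.316. MUC1 is a mucin of the epithelial surface, DPEP1 a membrane dipeptidase and HEBP2 a heme-binding protein. Like FADS2, HEBP2 had already been listed by the study among the genes lower in vitrified than in control blastocysts. MUC1 (EMBV3_11098) read 7.73, 7.81, 7.63 and 8.02 in the vitrified pools and 8.33, 9.50, 9.01 and 8.12 in the slow-frozen pools. The order of its slow-frozen pools was the one seen for FADS2, replicates 2, 3, 1 and 4 from high to low, which its choice by likeness to FADS2 favours. The differences of the 5 genes, -0.94, -0.90, -1.41, -0.81 and -1.002, were of the size of that of FADS2, which follows from the way they were picked.

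The other enzymes of elongation and desaturation were taken as a list, of which 13 had a probe with their symbol and 12 were tested, ELOVL3 being too dim. Of the 12, 10 were lower and 2 higher in vitrified pools, with a median of -0.09, and 2 lower and 0 higher had an unadjusted p under 0.05. At that p, 2.38% of all tested probes were lower and 2.45% higher. These 2 genes were FADS3 and CYB5R3, and both had groups that did not overlap. Groups without overlap, with vitrified lower, were found for 0.979% of all tested probes. FADS3 is the third member of the FADS cluster, a desaturase known from mouse and human to act on sphingoid bases. Its brightest probe (EMBV3_19333) read 9.27, 9.12, 9.18 and 9.003 in the vitrified pools and 9.87, 10.58, 10.87 and 9.46 in the slow-frozen pools. The vitrified pools were again tight (SD 0.11) and slow-frozen replicates 2 and 3 again highest (SD 0.64, larger than that of 97.4% of the tested probes). The difference was -1.05 ± 0.27 (SE), a fold of 2.07, with a limma p of 0.00275 unadjusted and 0.677 adjusted, so FADS3 was past the thresholds of the study. It was under a fold of 2 without slow-frozen replicate 2 (-0.91) or slow-frozen replicate 3 (-0.76). The second FADS3 probe (EMBV3_13768) gave -0.21 ± 0.16 (SE), with overlapping groups. In likeness to FADS2 the brightest FADS3 probe ranked 11, at 0.361. The 3 FADS genes are close relatives, and whether a probe also binds the transcript of another one was not tested.

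CYB5R3, the reductase that passes electrons through cytochrome b5 to the desaturases, read 10.10, 10.02, 9.90 and 10.22 in the vitrified pools and 10.37, 10.96, 10.67 and 10.48 in the slow-frozen pools. All vitrified pools were below all slow-frozen pools, and slow-frozen replicates 2 and 3 were highest here too. Its difference was -0.56 ± 0.16 (SE), with a 95% interval from -0.92 to -0.20, a fold of 1.48 and a limma p of 0.00568 unadjusted and 0.819 adjusted. With single pools left out the value lay between -0.67 and -0.44, and without both end pools it was -0.33 (unadjusted limma p of 0.0595).

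Of 11 tested genes among the other enzymes of synthesis, which include the mitochondrial synthesis route and suppliers of acetyl-CoA, 6 were lower and 5 higher, with a median of -0.03. None had an unadjusted limma p under 0.05 or passed the adjustment. The smallest p was that of MLYCD, malonyl-CoA decarboxylase, which removes the product of ACACA, at -0.27 ± 0.16 (SE) and an unadjusted limma p of 0.113 (adjusted p = 1.00). ACACB and ME1, the latter the list's supplier of NADPH, were not above the negative controls in enough pools to be tested.

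Acyl-CoA synthetases and fatty acid binding proteins activate and carry the substrates of these enzymes. Of 14 tested, 10 were lower and 4 higher (median -0.08), with 2 lower and 1 higher at an unadjusted p under 0.05. At that p, 2.38% of all tested probes were lower and 2.45% higher. FABP3, a cytosolic fatty acid carrier best known from heart and muscle, was the one higher. It read 11.44, 11.13, 11.59 and 11.20 in the vitrified pools and 11.04, 10.71, 10.81 and 10.46 in the slow-frozen pools, with all vitrified pools above all slow-frozen ones. Such a gap, in either direction, was found for 2.46% of all tested probes. The difference was 0.59 ± 0.17 (SE), a fold of 1.50, with a limma p of 0.00552 unadjusted and 0.817 adjusted. FABP5, the epidermal-type carrier, was lower at -0.71 ± 0.30 (SE), with an unadjusted limma p of 0.0389 (adjusted p = 0.995) and overlapping groups. Without vitrified replicate 1 it was -0.40 and without slow-frozen replicate 2 it was -0.47, and the unadjusted p was above 0.05 in 5 of the 8 fits with 1 pool left out (these, vitrified replicate 3, and slow-frozen replicates 1 and 3). ACSL3, an acyl-CoA synthetase of lipid droplets, was lower at -0.36 ± 0.16 (SE), with an unadjusted limma p of 0.0475 (adjusted p = 1.00), and its other probes gave -0.35 and -0.23. Its unadjusted p was above 0.05 without vitrified replicate 1, 2 or 4 or slow-frozen replicate 1 or 4. SLC27A2 was too dim to be tested.

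Among regulators of fatty acid synthesis, 19 genes were tested and 13 were lower and 6 higher (median -0.09), while THRSP, PPARA, RXRA and PRKAA2 were too dim. At an unadjusted p under 0.05, 2.38% of all tested probes were lower. MBTPS2, the protease that makes the second cut releasing SREBP from the membrane, was the one under an unadjusted p of 0.05, at -0.57 ± 0.20 (SE; limma p of 0.0174 unadjusted and 0.938 adjusted). It was -0.37 without slow-frozen replicate 2, and the unadjusted p was then above 0.05, as it was without vitrified replicate 1 or 2. SREBF1, which encodes the SREBP that drives many lipogenic genes, was not under it. Chosen after its values were seen, because it controls several of the members, it read 10.71, 10.68, 10.07 and 10.90 in the vitrified pools and 10.88, 11.07, 11.17 and 10.88 in the slow-frozen pools. Its groups overlapped and the difference was -0.41 ± 0.19 (SE; limma p of 0.0520 unadjusted and 1.00 adjusted). It was -0.22 without vitrified replicate 3, which was its lowest pool, and the unadjusted p was then 0.164.

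The last list holds genes around the release of arachidonic acid from phospholipid and its turning into prostaglandins, downstream of the FADS route. It also takes in LPCAT3, the lipoxygenases ALOX5 and ALOX15, LTA4H and the receptor PLA2R1, so its counts are not those of prostaglandin enzymes alone. Of 15 tested genes, 13 were lower and 2 higher, with a median of -0.24, and 4 lower and 0 higher had an unadjusted p under 0.05. At that p, 2.38% of all tested probes were lower and 2.45% higher. The study had already named PTGS2, AKR1B1 and PLA2R1 as changed against control, so the count and the median partly restate the choice of genes. PTGDS and TBXAS1 were too dim. PTGS2, the inducible cyclooxygenase that commits arachidonic acid to prostaglandins, read 11.27, 11.50, 11.58 and 12.35 in the vitrified pools and 12.29, 13.82, 12.87 and 12.61 in the slow-frozen pools. The ranges overlapped only through vitrified replicate 4 and slow-frozen replicate 1, and slow-frozen replicate 2 was again highest. Its difference was -1.22 ± 0.32 (SE; limma p of 0.00321 unadjusted and 0.705 adjusted). AKR1B1, an aldo-keto reductase with prostaglandin F synthase activity in the bovine endometrium, gave -1.06 ± 0.34 (SE; limma p of 0.00962 unadjusted and 0.898 adjusted), and both genes were past the thresholds of the study. The other probes gave -1.01 and -0.69 for PTGS2 and -0.73 for AKR1B1. PTGS2 fell under a fold of 2 without slow-frozen replicate 2 (-0.82), and AKR1B1 without vitrified replicate 1 (-0.93) or 3 (-0.89) or slow-frozen replicate 2 (-0.85) or 3 (-0.79). PLA2G15, a lysosomal phospholipase, gave -0.56 ± 0.16 (SE; limma p of 0.00551 unadjusted and 0.817 adjusted), and the phospholipase receptor PLA2R1 gave -0.93 ± 0.38 (SE; limma p of 0.0318 unadjusted and 0.979 adjusted). For PLA2R1 the other probe gave -0.48, and slow-frozen replicate 2 read 10.08 where the other slow-frozen pools read from 8.17 to 8.66. Without that pool its difference was -0.46, and the unadjusted p was above 0.05, as it was without vitrified replicate 1 or 2.

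Without vitrified replicate 3 and slow-frozen replicate 2 together, these named pathway genes kept their sign, mostly with smaller differences. FADS3 was -0.92, PTGS2 -0.64 and AKR1B1 -0.58, all under a fold of 2, and AKR1B1 had an unadjusted limma p of 0.145. The unadjusted p also rose above 0.05 for CYB5R3 (0.0595), FABP3 (0.41, limma p of 0.0578), FABP5 (-0.44, limma p of 0.232), MBTPS2 (-0.38, limma p of 0.0863) and PLA2R1 (-0.43, limma p of 0.138). SREBF1 was -0.15 (limma p of 0.357). PLA2G15 stayed under 0.05 (-0.37, limma p of 0.0478), and ACSL3 was larger, at -0.53 (limma p of 0.0176).

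**Figure D4:**
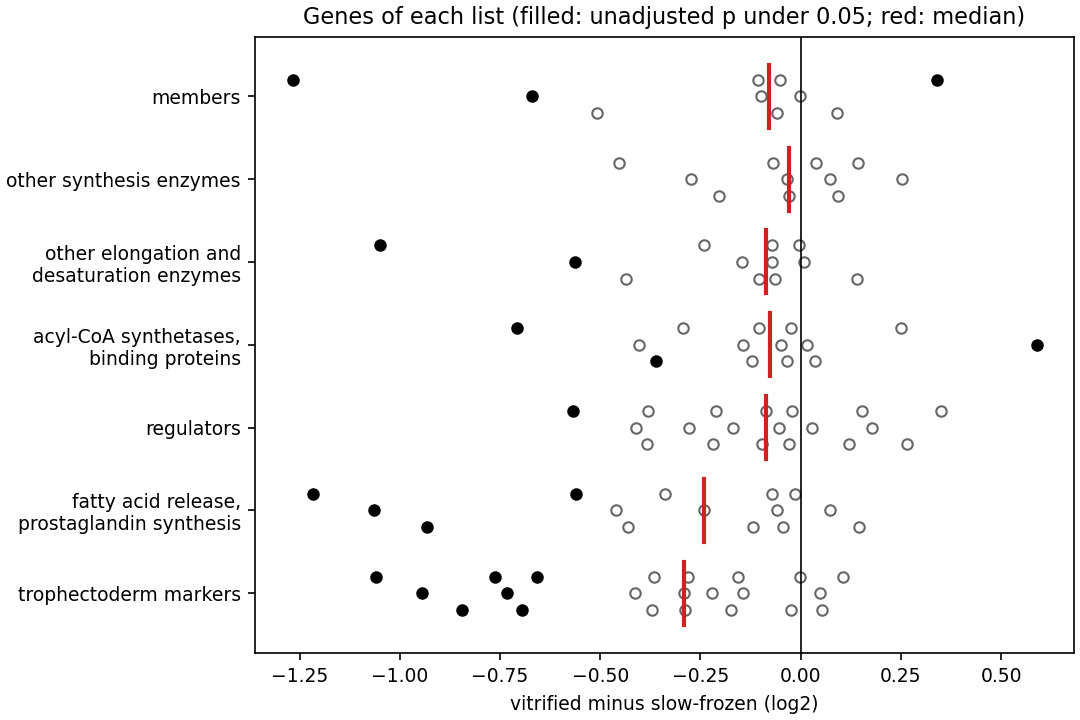
Difference of each tested gene (brightest probe, points), vitrified minus slow-frozen on the log2 scale, for the 10 members, the 5 lists of other lipid genes and the trophectoderm markers, filled where the unadjusted limma p is under 0.05, with the median of each list as a red line. The median is lowest in the list of fatty acid release and prostaglandin synthesis (-0.24) and in the trophectoderm markers (-0.29).

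Some markers of the embryo's cell types also differed between the groups. Of 22 tested trophectoderm markers, 19 were lower and 3 higher in vitrified pools, 7 of them lower at an unadjusted p under 0.05, with a median of -0.29. The shares of all tested probes at that p, for this and the other marker lists, were 2.38% lower and 2.45% higher. The mean level of the trophectoderm list was 10.57 to 10.90 in the vitrified and 10.93 to 11.23 in the slow-frozen pools. It was highest in slow-frozen replicates 2 and 3, the pools that were also highest for FADS2, FADS3 and ELOVL1. Its 3 genes with the smallest p were DAB2 (-0.69), DLX3 (-0.66) and SFN (-0.85), and the 3 other DAB2 probes ran from -0.42 to 0.39. The rest of the 7 were TFAP2A (-0.94, its other probe -0.22), CLDN4 (-0.76), KRT19 (-1.06) and PAG2 (-0.73), with adjusted limma p from 0.907 to 0.996. KRT19 was past the thresholds of the study, which had already listed it as lower in vitrified than in control blastocysts. Some trophectoderm markers differed little. CDX2 (-0.22), GATA3 (-0.17), TEAD4 (-0.16) and TFAP2C (0.05) are named for that reason, each with an unadjusted limma p above 0.05. Inner cell mass markers had a median of 0.17, with 8 higher and 5 lower of 13, and 3 higher and 1 lower had an unadjusted p under 0.05. SPIC (0.81), PRDM14 (0.68) and KLF4 (0.61) had the smallest p, and the lower one was ESRRB (-0.34), which is named because it went the other way. Hypoblast markers had a median of 0.25, with 7 of 10 higher, and CDH2 (0.31), PDGFRA (0.83, its other probes 0.08 and 0.18) and APOA1 (-0.93) had the smallest p, that of CDH2 alone being under 0.05. In pools of whole embryos, fewer cells of a type and less RNA per cell cannot be told apart. With the mean of the trophectoderm markers of the same pool subtracted, the difference between groups was -0.89 for FADS2, -0.68 for FADS3 and -0.30 for ELOVL1, with no test. That mean was 10.69 in vitrified and 11.06 in slow-frozen pools. Subtracting it shifts the group difference of any gene by the same amount, so the smaller values do not show a part of trophectoderm. After the subtraction the groups of FADS2 and FADS3 overlapped, slow-frozen replicate 4 lying within the range of the vitrified pools for both.

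Markers of cumulus and granulosa cells, which surround the oocyte, were tested for 7 genes, 6 lower and 1 higher with a median of -0.07. FSHR (-0.35), GATM (-0.36) and CYP19A1 (-0.13) had the smallest p, 0 of the 7 had an unadjusted limma p under 0.05, none passed the adjustment, and HAS2, AMH, FOXL2 and AMHR2 were too dim to be tested. The list mean ranged from 7.60 to 7.79 in vitrified and from 7.68 to 7.92 in slow-frozen pools. Blood cell markers were lower for 3 and higher for 3 of 6 tested genes (AIF1 -0.57, PTPRC -0.42 and HBB 0.37 had the smallest p), 2 of them lower at an unadjusted p under 0.05. Their list mean was 7.97 to 8.23 in vitrified and 8.17 to 8.25 in slow-frozen pools. The part of any of these cell types in the differences of the fatty acid genes was not tested.

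**Figure D5:**
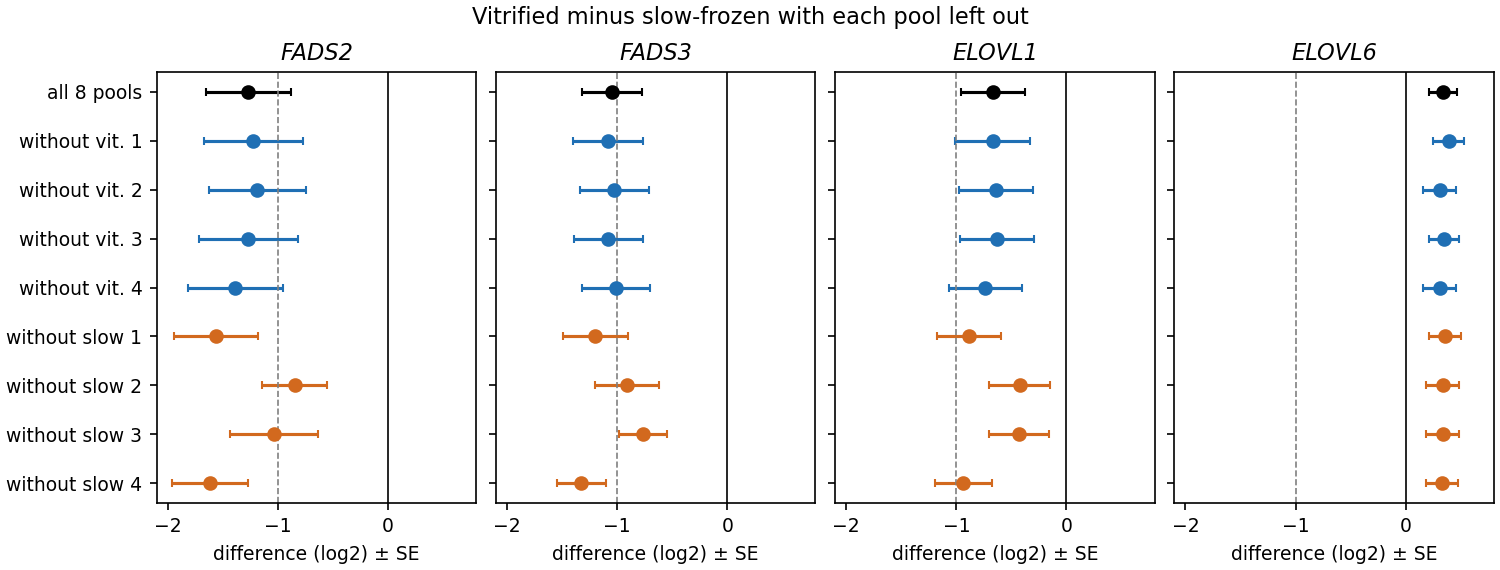
Difference (points, log2) ± SE from the limma fit with all 8 pools (black) and with each vitrified (blue) or slow-frozen (orange) pool left out, for FADS2, FADS3, ELOVL1 and ELOVL6, with a dashed line at a fold of 2 lower. FADS2 ranges from -1.62 to -0.85, FADS3 from -1.33 to -0.76, ELOVL1 from -0.94 to -0.43 and ELOVL6 from 0.31 to 0.39.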

How the data were processed

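The authors deposited, per channel, the median intensity of every spot and of its local background as read by Array-Pro, not yet subtracted. In each of the 4 files, 1 vitrified and 1 slow-frozen channel were put together that the authors had hybridised on separate arrays, each with a control pool. Per the methods, the authors' own processing was background subtraction, log2 transformation, and normalisation within and between arrays. Group, replicate and dye came from the sample labels. Of 43794 probes, 58 marked as ignored were left out. Background was corrected here by normexp (offset 50), followed by loess within files (zero weight for the 1418 control spots) and by quantile normalisation of the 8 channels. The 30034 probes tested were those brighter, before correction, than the 95th percentile of 153 negative control spots in 3 or 4 pools of either group.

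The comparison of groups used limma 3.58.1 (R 4.3.3, two-sided), with an additive dye term. Benjamini-Hochberg adjustment covered every tested probe, and the study's own thresholds were read from that fit. The procedure was tested on simulated data. The log2 ratios that the authors deposited matched log2 of Cy5 over Cy3 (r of at least 0.999996, medians from -0.00124 to 0.00192) and served as an alternative. Symbols came from the platform table (21790 probes with 1 symbol, 22004 with none), of which 1524 were updated through the reference table (assembly ARS-UCD2.0). By the methods, replicates were separate cycles of embryo production and freezing that gave a pool for each treatment, so the groups share cycles, but no label ties equal replicate numbers to the same cycle. The number of arrays limits the precision.

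Named genes were all members with every probe, up to 4 genes per list with an unadjusted p under 0.05 or else the 1 with the smallest p, the 3 smallest p of each marker list, and the 5 genes nearest to FADS2. The other trophectoderm markers under an unadjusted p of 0.05 were named as well. The members and lists were chosen with earlier results of these data known. Alternatives were other background corrections, normalisations, filters and designs, each dye alone, and each pool left out.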

Additional observations from a re-analysis of the deposited data

Results flagged for a closer look

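Of the 30 sets of 4 pools examined for a pool far from the others (15 probes in 2 groups), 1 was marked, and chance marks about 1 in 20. It was ACACA (EMBV3_31559) in vitrified replicate 3, at a log2 level of 7.14 where the other vitrified pools lay between 7.90 and 8.002. Its gap to the nearest pool was 0.876 of the range of the group. ACACA was above the negative controls in 3 of 4 vitrified pools, and the same pool was the lowest vitrified pool for 9 of the 10 genes.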

How the results depend on the processing

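FADS2 stayed lower in vitrified pools in all 22 alternatives, with adjusted p-values from 0.259 to 1.00, and was past the thresholds of the study in 19. It was not with the Cy3 pools alone (-0.96, unadjusted limma p of 0.0547), without slow-frozen replicate 2 (-0.85), or without vitrified replicate 3 and slow-frozen replicate 2 together (-0.75), a setting chosen after seeing the data. With single pools left out it ranged from -1.62 to -0.85. ELOVL1 (-0.94 to -0.32) and ELOVL6 (0.26 to 0.39) kept their direction in all 22 alternatives, but not always an unadjusted p under 0.05. Differences near 0 reversed, and so did the larger one of SCD (-0.51), in 1 alternative. With the Cy3 pools alone, FADS1 was 0.056 and ELOVL7 0.025. With the Cy5 pools alone, ACACA was 0.11 and ACLY 0.20. Without both pools named above, SCD was 0.21, ELOVL7 0.049, FASN 0.23, ACACA 0.24, ACLY 0.28 and the median of the 10 genes 0.22. With single pools left out the ranges were -0.54 to 0.28 for FADS1, -0.85 to -0.17 for SCD, -0.085 to 0.26 for ELOVL5, -0.27 to 0.0020 for ELOVL7, -0.17 to 0.075 for FASN, -0.18 to 0.13 for ACACA, -0.14 to 0.22 for ACLY and -0.17 to 0.02 for the median. The number of member probes past the thresholds was 1, and 0 with the Cy3 pools alone or without both pools, and 0 to 1 with single pools left out (0 without slow-frozen replicate 2). The number with an unadjusted p under 0.05 was 3 in the main fit and ran from 0 to 5 over the alternatives. It was 5 (4 lower and 1 higher) from the authors' log2 ratios. With plain background subtraction, no background correction, no loess, or the file as a random block it was 4. Without quantile normalisation or with the Cy5 pools alone it was 2. It was 0 with the Cy3 pools alone, 1 (FADS1) without both pools, and 1 to 4 with single pools left out (1 without vitrified replicate 2). The cause was not tested.

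Replicates carried the same numbers in both groups, but same-numbered pools did not deviate together in every pair (correlations of 0.16, 0.09, -0.03 and 0.09), and 4 of 8 pools correlated best with their own number. With the replicate number as a block the FADS2 difference was -1.27 (adjusted p = 0.804). Dim probes limit ACACA, ELOVL7 and the second FADS1 probe, which were near the negative controls.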
